A study of Mus musculus with 6 samples.

Results

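The 9 genes described here encode parts of the fibroblast growth factor (FGF) and ERK pathway, namely Fgf4, Fgfr1, Fgfr2, Spry1, Spry2, Spry4, Dusp6, Etv4 and Etv5. They were chosen by name, and every SALL4 interval in the gene or within 50 kb of either end was taken, in lists of SALL4 binding from mouse embryonic stem cells. These windows held 78 of 55058 and 73 of 48295 intervals in wild-type replicates 1 and 2, and 0 of 34 and 0 of 39 intervals in knockout replicates 1 and 2. SALL4, a zinc-finger protein that binds DNA, was mapped by CUT&RUN, in which an antibody in permeabilised cells directs a nuclease to release the DNA around its target for sequencing. The wild-type group was a floxed line (Sall4 F/F), whose gene is intact but flanked by recombination sites. The knockout group was a Sall4 -/- line, and each group had 2 libraries made with SALL4 antibody clone EE-30. Both lines grew in the same medium, 2i + LIF. Each genotype is thus represented by 1 line, and nothing in the labels says whether the replicates came from separate cultures, so their spread may be technical. Libraries made with IgG, 1 per line, were not analysed here. The lists give binding only, so neither expression of the 9 genes nor the cells' identity could be checked.

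FGF ligands bind receptor tyrosine kinases at the cell surface, which pass the signal through a cascade that includes RAS and MEK to the kinase ERK. Active ERK switches on genes for its own inhibitors (the sprouty proteins and the phosphatase DUSP6) and for ETS transcription factors such as ETV4 and ETV5. In embryonic stem cells FGF4 is the main ligand, its gene is a known target of OCT4 and SOX2, and ERK signalling helps the cells leave the naive state. One of the inhibitors in 2i medium is known to block MEK, and ERK activity in these lines was not measured here.

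The deposited lists give each interval a fold enrichment, the pileup of fragments at its summit over a local background, both with 1 added. The number of fragments and the background were recovered from this value and the p-value for 100% of the lines, and are given below as fragments over background. A consensus region here is a stretch called in both wild-type lists and in neither knockout list. The whole series held 37997 of them, of which 61 lay in the 9 windows. The median interval of a full wild-type list rested on 9 fragments at its summit, and that of a full knockout list on 12 or 13. The full knockout lists also had a stricter limit, with a weakest −log10 p of 6.61 and 7.12 against 3.55 and 3.60 in wild type. The Sall4 gene contained 5 and 5 wild-type intervals and 0 and 0 knockout intervals, but with 34 and 39 intervals in the whole knockout lists a 0 there does not check the genotype label.

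All 9 genes had SALL4 intervals in both wild-type lists and in neither knockout list. The windows held 75.5 ± 3.54 intervals in wild type (SD, n = 2) and 0 in each knockout library. After 1 was added to each number, the log2 difference was 6.26, against a spread of 0.0667 (SD, log2) within wild type. Permuting the 4 libraries exactly, two-sided, gave p = 0.333, and no smaller p can be reached with 2 libraries against 2. Across all 21887 coding genes, 70.6% had more intervals in every wild-type list than in any knockout list, in windows built the same way. An excess in wild type is thus what most coding genes showed and is not particular to the 9. When every list was held to a −log10 p of 8 or more, the windows kept 43 and 43 wild-type intervals, with 0 in either knockout list.

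**Figure D1:**
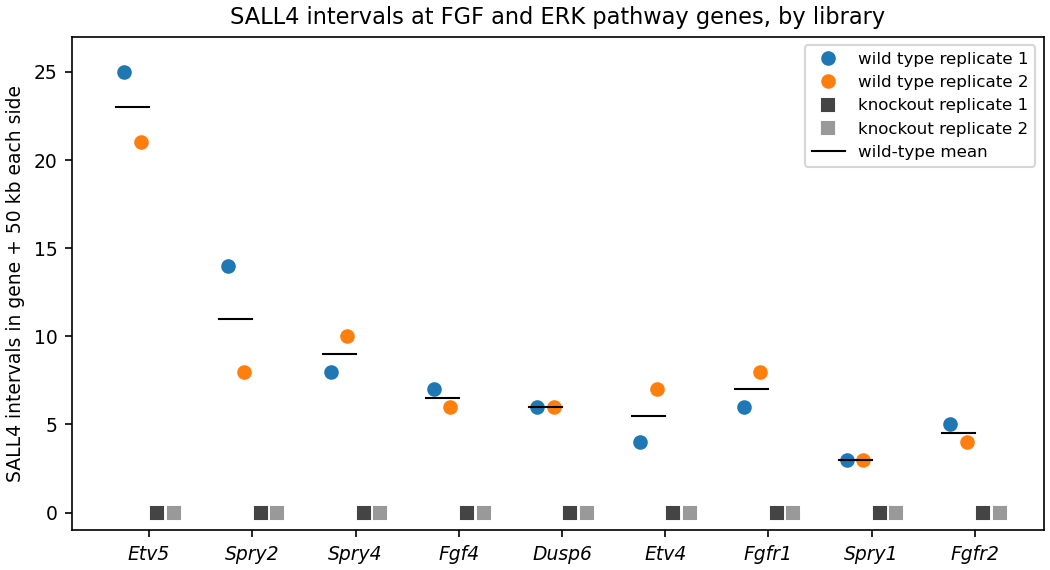
Number of SALL4 intervals (y axis) in each gene and 50 kb on each side, for the 9 genes ordered by intervals per 100 kb of window (x axis). Circles are the wild-type libraries, bars their means, and squares the knockout libraries, which lie at 0 throughout. Etv5 stands highest with 25 and 21 intervals, and Spry1 lowest with 3 and 3.

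At least 1 consensus region lay at 9 of 9 genes, compared with 68.7% of all coding genes. Per 100 kb of window the 9 genes held from 1.96 (Fgfr2) to 13.3 (Etv5) consensus regions, with a median of 4.80. The median of all coding genes was 0.970, and 9 of 9 genes lay above it. Without Etv5 the median of the other 8 was 4.13. Only intervals with a −log10 q of at least 10 gave a median of 1.74 for the 9 genes and 0 for all coding genes. Neighbouring genes share regions, so these values describe the genome and are not a test, and the 9 genes were chosen with results of these lists known.

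The order of the genes was read from the number of intervals per 100 kb in each wild-type list. Etv5 (15.8 and 13.3 in replicates 1 and 2), Spry2 (13.3 and 7.63) and Spry4 (6.95 and 8.69) came first. The range of Spry2 overlapped those of Etv5 and Spry4, so its place among these 3 is not resolved. Both values of Etv5 were above both values of Spry4. Fgf4 (6.74 and 5.78) followed, and its lower value was just above the 5.75 of Dusp6 in both lists. Etv4 (3.46 and 6.06) and Fgfr1 (3.82 and 5.10) could not be ordered, and the range of Etv4 also covered the value of Dusp6 and overlapped that of Fgf4, so Etv4 is not placed below either. Spry1 (2.87 in both) and Fgfr2 (2.45 and 1.96) were lowest, and their values were separate.

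**Figure D2:**
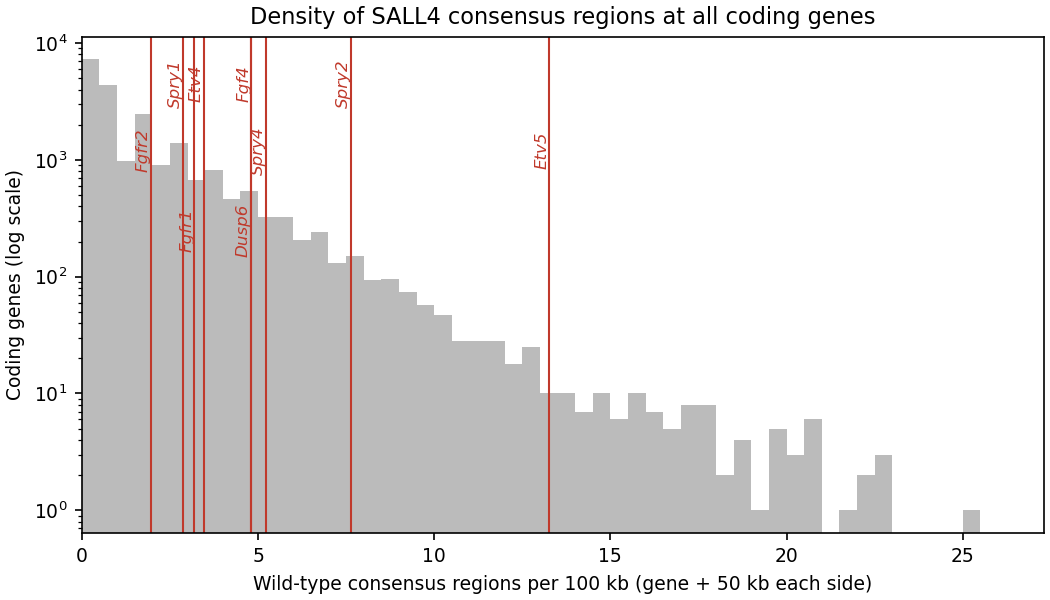
Number of coding genes (y axis, log scale) by wild-type consensus regions per 100 kb of gene and 50 kb flanks (x axis, bins of 0.5). Red lines mark the 9 genes, which run from 1.96 at Fgfr2 to 13.3 at Etv5, all above the median of 0.970.

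Promoters came first, since SALL4 lay over only some of them. RefSeq (GRCm38.p6) lists 300 bp promoter windows, from 250 bp before to 50 bp after a transcription start, for 6 of the 9 genes (Fgf4, Fgfr2, Spry1, Spry2, Dusp6 and Etv5). A consensus region overlapped a listed promoter of 2 of these 6, Dusp6 and Etv5, compared with 3.87% of the 17492 coding genes that have one. The 250 bases before the start are shown for these 2 genes, and for Fgf4 as a promoter with no interval. They lie at chr10:99262981-99263230 on the plus strand (Dusp6), chr16:22439571-22439820 on the minus strand (Etv5) and chr7:144861136-144861385 on the plus strand (Fgf4). Each is written 5′ to 3′ towards the start, with the bases inside a consensus region in capitals.
Dusp6: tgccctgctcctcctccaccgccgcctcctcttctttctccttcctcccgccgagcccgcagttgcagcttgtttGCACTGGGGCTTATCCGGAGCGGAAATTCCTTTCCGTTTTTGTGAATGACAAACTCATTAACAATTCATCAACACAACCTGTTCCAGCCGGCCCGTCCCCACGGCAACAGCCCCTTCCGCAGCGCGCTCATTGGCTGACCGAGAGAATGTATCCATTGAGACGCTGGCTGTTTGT
Etv5: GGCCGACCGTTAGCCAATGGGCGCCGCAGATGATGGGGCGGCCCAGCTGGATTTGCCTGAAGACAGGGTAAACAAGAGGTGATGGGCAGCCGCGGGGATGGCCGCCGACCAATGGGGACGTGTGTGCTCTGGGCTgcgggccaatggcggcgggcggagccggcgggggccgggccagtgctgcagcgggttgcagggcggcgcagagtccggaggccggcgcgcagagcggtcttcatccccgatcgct
Fgf4: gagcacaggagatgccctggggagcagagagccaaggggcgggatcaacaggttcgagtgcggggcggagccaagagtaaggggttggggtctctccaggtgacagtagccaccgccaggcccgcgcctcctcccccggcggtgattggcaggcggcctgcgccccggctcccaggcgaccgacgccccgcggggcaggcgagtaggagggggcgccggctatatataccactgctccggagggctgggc

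In Dusp6 the consensus region covered the 175 bases nearest the start. In Etv5 it covered the 135 bases farthest from the start and ran on upstream. The Fgf4 promoter, written entirely in lower case, held no region. The A+T content of the 300 bp windows was 42.7% for Dusp6, 26% for this start of Etv5 and 30.3% for Fgf4, beside a median of 43.7% over 21263 promoters of coding genes.

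Both strands of these windows were searched for ATATT, the AT-rich motif known for a zinc-finger cluster of SALL4, for the POU octamer ATGCAAAT, and for the SOX core CATTGT. A stretch that reads ATATT on both strands counts for each. Of the 7 windows of the 6 genes (Etv5 has 2 starts), only that of Fgfr2 held ATATT, on 1 occasion, and none held the other motifs. Among all promoters of coding genes, 22.0% held ATATT, 1.66% the octamer and 11% the SOX core. In the 723 promoters that overlapped a consensus region the shares were 25.7%, 5.81% and 13.1%. No genome sequence was used here, so the letters under the other regions were not searched.

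The ligand gene was Fgf4 (chromosome 7, 144861386 to 144865245, gene ID 14175), whose product stem cells secrete. Its window held 7 and 6 intervals in wild type, 0 and 0 in the knockout, and 5 consensus regions. The strongest region, at 144864126 to 144864719, lay inside the gene with its summit 893 bp before the gene's 3′ end. Its fold enrichments were 20.3 and 12.1, from 31 and 23 fragments over backgrounds of 0.575 and 0.988. The fragments fell less than the fold enrichment between the replicates, while the local background was higher in replicate 2. As background, an enhancer of Fgf4 that OCT4 and SOX2 bind is known at the 3′ end of this gene, and whether the region coincides with it was not tested.

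A weaker region crossed the 3′ end itself, at 144865146 to 144865360, with fold enrichments of 4.06 and 4.02 from 7 fragments in each library. Another pair lay upstream, with summits 3440 and 2428 bp before the start and fold enrichments of 13.3 and 10.01 for the first and 8.89 and 5.63 for the second. Of the 5 summits, 4 were nearer to Fgf4 than to any other coding gene, and the fifth was nearest to Fgf3. The window also contains the ligand genes Fgf3 and Fgf15, and all 5 consensus regions at Fgf3 and all 4 at Fgf15 are among those counted at Fgf4.

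The receptor genes came next. Fgfr1 (chromosome 8, 25518759 to 25575718, gene ID 14182) encodes a receptor for FGF4, and its window held 6 and 8 wild-type intervals and 0 and 0 knockout intervals. Of its 5 consensus regions 1 lay inside the gene. The strongest, at 25475809 to 25476124, had its summit 42.9 kb below the gene's lower end, with fold enrichments of 15.15 and 14.96 from 21 fragments in each library. It was close to equal in the replicates, and Fgfr1 was the nearest coding gene to all 5 regions. Letm2 and Nsd3 also reach into the window.

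Fgfr2 (chromosome 7, 130162451 to 130266808, gene ID 14183), a receptor best known from epithelial and extraembryonic cells, is the longest of the 9 genes. Its window held 5 and 4 intervals in wild type, 0 and 0 in the knockout, and 4 consensus regions. All 4 lay inside the gene, and the 50 kb on each side held none. The strongest, at 130264652 to 130264945, lay 2027 bp downstream of the transcription start, with fold enrichments of 10.7 and 10.1 from 20 and 19 fragments. Of all coding genes, 32.5% had as many regions per 100 kb as Fgfr2 or more.

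The sprouty genes encode inhibitors that ERK signalling induces and that act on the pathway between the receptor and ERK. None of the 3 held a consensus summit inside the gene. Spry1 (chromosome 3, 37639947 to 37644599, gene ID 24063) had the fewest, with 3 and 3 intervals in wild type, 0 and 0 in the knockout, and 3 consensus regions. Its strongest, at 37667743 to 37668151, lay 23.3 kb above the gene's upper end with fold enrichments of 8.95 and 8.84 from 12 fragments in each library. Spry1 was the only one of the 9 genes with no region once a fold enrichment of at least 10 was required.

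Spry2 (chromosome 14, 105891947 to 105896819, gene ID 24064) lies in a window with no other coding gene. It held 14 and 8 wild-type intervals and 0 and 0 knockout intervals, the widest gap between the wild-type replicates among the 9. Part of the gap was split intervals. For example, the replicate 1 intervals at 105859108 to 105860710 and 105860853 to 105861339 overlapped the same replicate 2 interval, at 105859063 to 105861286. All 8 consensus regions lay outside the gene. The strongest, at 105900511 to 105901309, lay 3946 bp upstream of the start with fold enrichments of 24.1 and 18.1 from 37 and 28 fragments. It stood in the top 1.95% and 4.67% of the replicates' lists. The widest region of all 9 windows, 2277 bp at 105859063 to 105861339, also belonged to Spry2, with fold enrichments of 14.8 and 14.01. It was 1 of 3 regions that followed each other within 5 kb, a limit chosen after the values were seen.

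Spry4 (chromosome 18, 38586247 to 38601347, gene ID 24066) held 8 and 10 wild-type intervals and 0 and 0 knockout intervals. The strongest of its 6 consensus regions, at 38570647 to 38570998, lay 15.4 kb below the gene's lower end with fold enrichments of 15.4 and 10.6 from 22 and 15 fragments. A further region at 38601349 to 38601679 began 2 bp beyond the gene's upper end and had fold enrichments of 7.62 and 8.84. That region was also 97 bp from Arhgap26 by its summit, and 3 of the 6 regions were nearest to Arhgap26 rather than to Spry4. Over the coding genes of chromosome 18 the median was 1.54 consensus regions per 100 kb, against 5.21 at Spry4.

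Dusp6 (chromosome 10, 99263231 to 99267489, gene ID 67603) encodes a phosphatase that removes the activating phosphates of ERK in the cytoplasm. Its window has no other coding gene and held 6 and 6 intervals in wild type, 0 and 0 in the knockout, and 5 consensus regions. The promoter region shown above, at 99263056 to 99263237, had its summit 81 bp before the start. It was of moderate strength, with fold enrichments of 6.61 and 6.04 from 12 and 11 fragments. By the worse of its ranks in the wild-type lists, the strongest region was at 99293110 to 99293641, 25.8 kb beyond the gene, with fold enrichments of 13.8 and 13.6 from 19 fragments in each library. A region inside the gene at 99265441 to 99265900 was as strong within the spread of the replicates, at 13.6 and 14.7 from 23 and 24 fragments. Its summit lay 1760 bp before the gene's 3′ end.

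The target genes Etv4 and Etv5 encode ETS transcription factors of the PEA3 family, and their SALL4 regions differed in number. Etv4 (chromosome 11, 101769747 to 101785310, gene ID 18612) held 4 and 7 intervals in wild type, 0 and 0 in the knockout, and 4 consensus regions. At its upper end 3 regions followed each other within 5 kb. The first of them, at 101785350 to 101785519, began 40 bp beyond the gene with fold enrichments of 4.57 and 7.01. The next, at 101785940 to 101786204, had values of 5.35 and 3.70. The strongest, at 101787262 to 101787823, had its summit 2352 bp beyond the gene and fold enrichments of 16.2 and 10.6 from 23 and 20 fragments. Its local background was 0.479 in replicate 1 and 0.988 in replicate 2, so the fold enrichments differ more than the fragments do. Chromosome 11 has many regions in general, with a median of 1.47 per 100 kb over its coding genes against 3.46 at Etv4.

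Etv5 (chromosome 16, 22381313 to 22439570, gene ID 104156) had the most, with 25 and 21 intervals in wild type, 0 and 0 in the knockout, and 21 consensus regions. These were 34.4% of the 61 regions at the 9 genes. Of all coding genes 0.466% had as many regions per 100 kb or more, and on chromosome 16 99.1% had fewer. Inside the gene lay 15 of the 21 summits. A run of 12 regions, each summit within 5 kb of the next, spanned 26.02 kb of the gene at 22390465 to 22416480. The strongest region of the window lay in this run at 22402362 to 22403426, with fold enrichments of 25.7 and 18.01 from 37 and 26 fragments. A second wide region of the run, at 22412321 to 22413367, had 19.9 and 15.5 from 38 and 30 fragments.

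The promoter region of Etv5 shown above, at 22439686 to 22440003, had its summit 293 bp upstream of the start. Its fold enrichments of 19.7 and 17.7, from 30 and 29 fragments, placed it second in the window by the worse of its ranks in the wild-type lists. A further region 2793 bp upstream, at 22442214 to 22442511, had 16.5 and 12.2. Apart from 1 region nearest to Dgkg, all were nearest to Etv5.

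**Figure D3:**
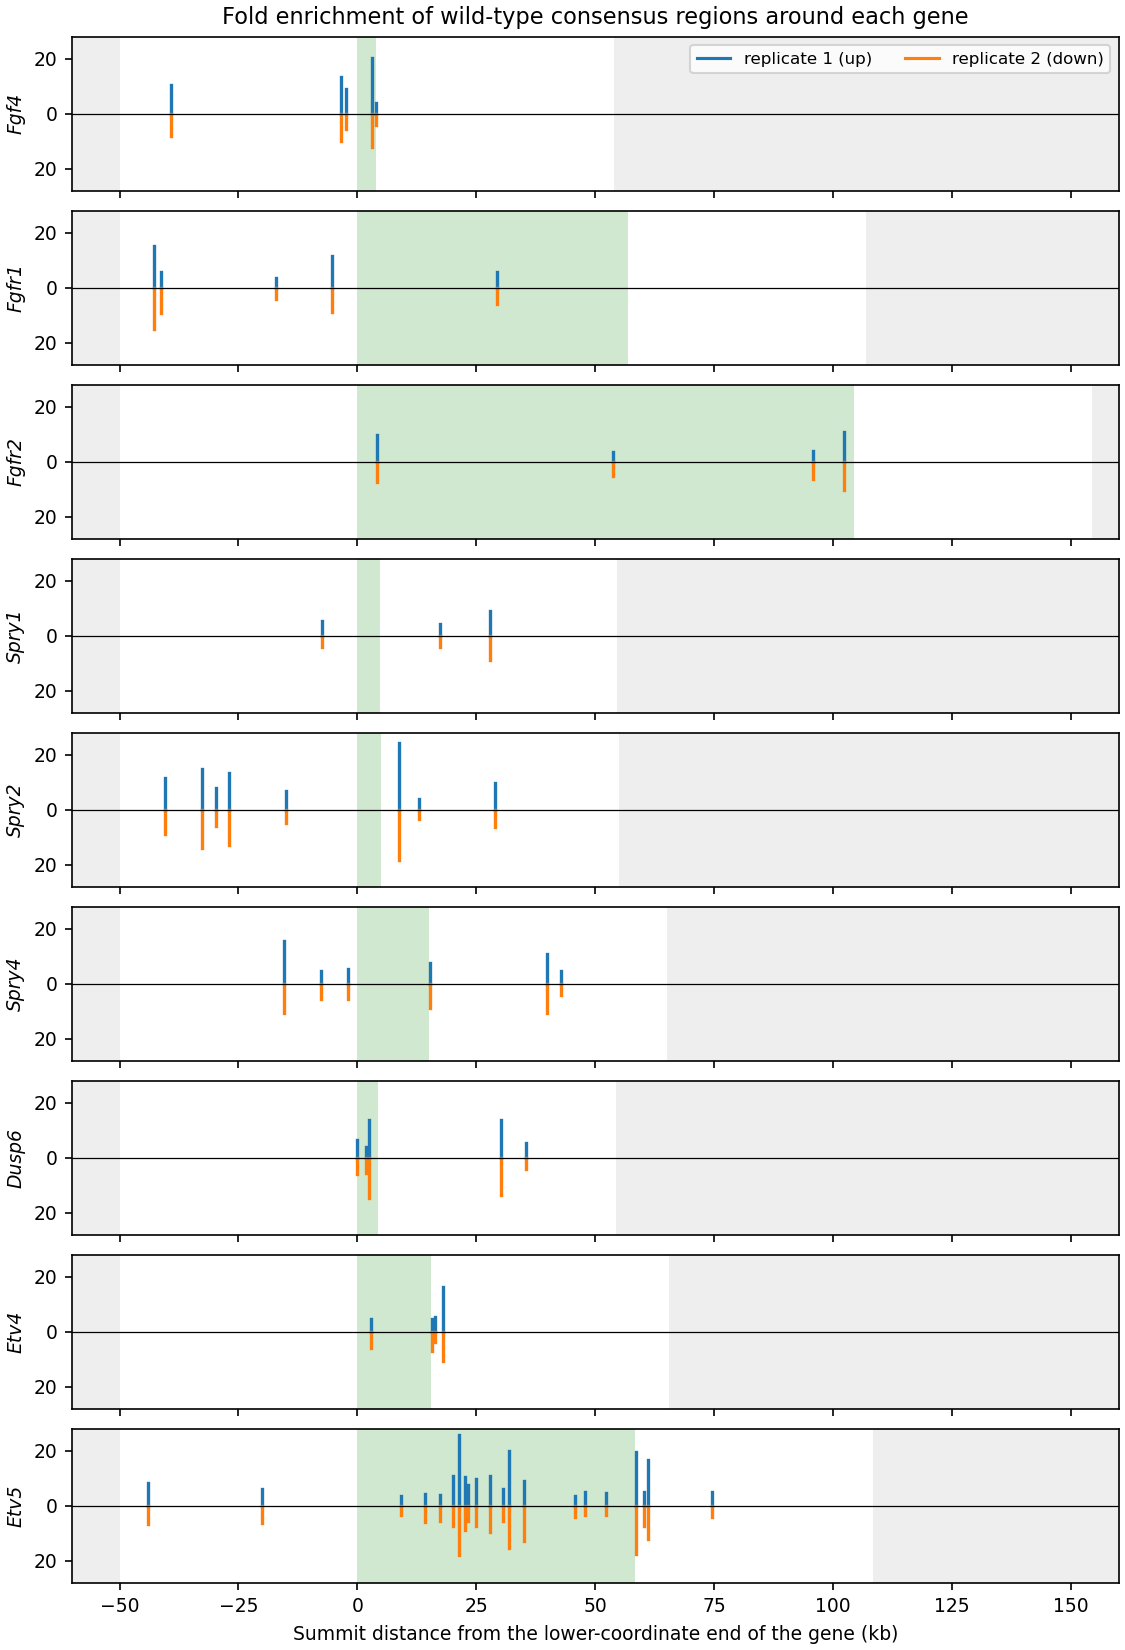
Wild-type consensus regions around the 9 genes, 1 panel each, by distance of the summit from the gene's lower-coordinate end in kb (x axis). Line length gives the fold enrichment in replicate 1 (upwards) and replicate 2 (downwards), green marks the gene and grey lies outside the window. Etv5 shows a run of 12 regions inside the gene, Fgfr2 holds all 4 of its regions inside the gene, and the sprouty genes hold none inside.

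Position was then compared over the whole set. A consensus summit lay within 1 kb of either end of the gene at 5 of 9 genes (Fgf4, Spry4, Dusp6, Etv4 and Etv5), compared with 7.88% of all coding genes. With a −log10 q of at least 10, or a fold enrichment of at least 10, 2 of the 9 had such a summit, compared with 2.01% and 1.22% of all coding genes. Inside their own gene lay 25 of the 61 summits, which is 41.0% (95% Wilson interval 29.5 to 53.5, counting error only), while the genes made up 22.9% of the windows. This rested on Etv5. Without it, 10 of 40 summits (25%) lay inside a gene, and the genes made up 20.8% of the windows.

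In strength the 61 regions were set beside the consensus as a whole. Their median fold enrichments were 7.62 and 6.80 in replicates 1 and 2, beside 7.11 and 6.54 over all consensus regions. In the top 10% of both lists stood 6 of the 61, or 9.84%, beside 10.7% of all consensus regions. Median lengths were 298 bp and 327 bp. These values were not tested against each other.

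The replicates were compared interval by interval. Replicate 2 recovered 64 of the 78 replicate 1 intervals in the 9 windows, a share of 82.1% with a 95% Wilson interval from 72.1 to 89.0. Replicate 1 recovered 61 of the 73 replicate 2 intervals, or 83.6% with an interval from 73.4 to 90.3. These bounds cover counting error only, since intervals of 1 library are not independent replicates. The shares over the full lists were 70.4% and 79.3%, and the differences were not tested. Intervals found in 1 list only were weak, with median fold enrichments of 4.54 and 4.71 from 6 and 6.5 fragments. Those found in both had medians of 7.60 and 6.80 from 12 and 10 fragments.

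Across the 61 regions the replicates' fold enrichments correlated with a Spearman's rho of 0.866 and, as log2 values, a Pearson's r of 0.883. Over all 37997 consensus regions rho was 0.771. Regions share their libraries and are not independent replicates, so no p-value is given. The value in replicate 2 was lower at 45 of 61 regions, or 73.8%, beside 65.2% of all consensus regions. Summits of the replicates lay a median of 29 bp apart, and 56 of 61 were within 100 bp.

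**Figure D4:**
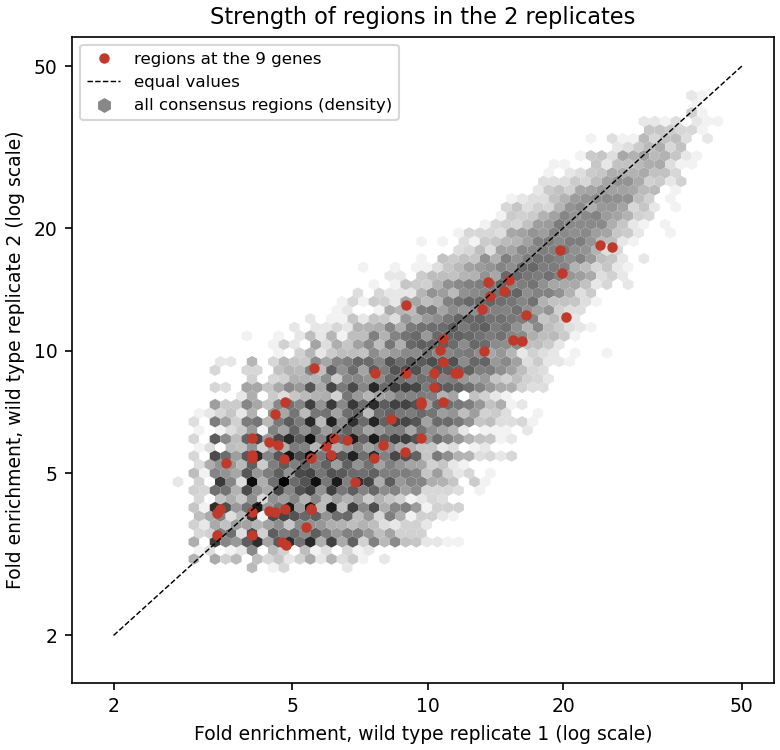
Fold enrichment of each consensus region in wild-type replicate 1 (x axis) and replicate 2 (y axis), both on log scales. Red points are the 61 regions at the 9 genes, grey shading is the density of all 37997 regions, and the dashed line marks equal values. The red points spread along the same band as the rest.

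The pathway as a whole was described with a list of 76 genes in 5 roles, the 9 genes included, all of which matched the gene table. Of these, 61 had a consensus region in the gene or within 50 kb, which is 80.3% beside the 68.7% of all coding genes. Among the 67 genes outside the 9, 52 had one, and their median was 1.68 regions per 100 kb. None of the 76 had an interval in either knockout list. The whole lists of knockout replicates 1 and 2 held only 34 and 39 intervals, so this is not read as a trait of the pathway. The share of all coding genes without a knockout interval is not given here.

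By role, 20 of 22 ligand genes had a consensus region, with the highest densities at Fgf21 (7.87 per 100 kb), which encodes a hormone-like FGF, and Fgf4 (4.81). Fgf5, a ligand of the primed epiblast, and Fgf22 had none. Of the receptors and co-receptors 5 of 7 had one, led by Fgfr1 (3.19) and Fgfr4 (2.59), while Fgfr3 and the decoy receptor gene Fgfrl1 had none. In the cascade from adaptor to ERK 17 of 19 had one, among them the GTPase gene Nras (6.39). Shc1, which encodes an adaptor, and Mapk3, which encodes ERK1, had none.

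Among inhibitors 11 of 16 had a consensus region, led by Spry2 (7.63) and Il17rd (6.54), which encodes a membrane inhibitor of FGF signalling. Spry3 and the phosphatase genes Dusp4, Dusp5, Dusp7 and Dusp9 had none. Of the targets and ERK-responsive factors 8 of 12 had one, led by Etv5 (13.3) and Elk3 (6.72), while Fos, Fosl1, Ier3 and Elk1 had none. Of the 6 pathway genes on X, 3 were among those with none. The share over all coding genes on X was not computed, so this is not read as a trait of X. Of the Dusp genes listed, Dusp6 (4.80) and Dusp1 (3.89) had regions.

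**Figure D5:**
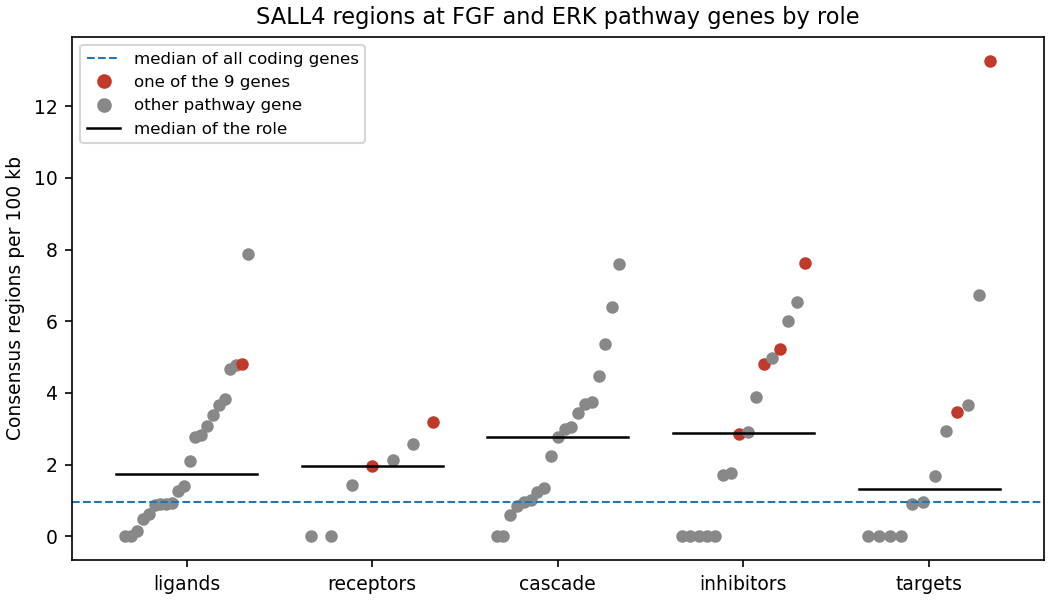
Consensus regions per 100 kb of gene and 50 kb flanks (y axis) for the 76 pathway genes by role (x axis). Each point is 1 gene, red for the 9 genes and grey for others, black bars are medians by role, and the dashed line is the median of all coding genes, 0.970. Etv5 is the highest point at 13.3, and genes with no region lie at 0 in every role.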

How the data were processed

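SALL4 CUT&RUN was deposited as 1 peak list per sample, and groups and replicate numbers follow the sample titles. Per the submitters' processing notes, Trim Galore 0.6.0, cutadapt 1.18, BWA 0.7.17, MACS2 2.1.1.20160309 and the build GRCm38 (mm10) were used. Settings, filters and the control are not given in the sources used here. The deposited columns are a fold enrichment (a ratio), a −log10 p-value, a −log10 q-value, a score (10 times the −log10 q-value, cut to a whole number), and a summit offset in bp. Depth as read totals is unknown. Fold enrichments are the authors', were scaled separately in each list, and were used to rank and filter within a list. Values set side by side between the wild-type replicates are a description.

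Overlapping lines of a list were merged, keeping the strongest. Coordinates count from 1. Genes come from the RefSeq table of GRCm38.p6, which gives no strand, so starts come from the promoter table. Sharing needed an overlap of at least 1 bp, and a region's summit is that of the list where it ranked better. Pileups were recovered within a tolerance of 0.0001 in −log10 p, and the code was tested on simulated data. The planned search for motifs at summits needs a genome and was replaced by one in promoters. All 9 genes are named, with the best-ranked consensus region of each window, every region within 1 kb of a gene end, and, by pathway role, the 2 genes of highest density and those with none where these number 5 or fewer. A result on 1 gene that this rule covers is not reported here. Other regions were named after their values were seen. The genes and lists were chosen with earlier results of these data known. Python 3.11.15, numpy 2.4.6, scipy 1.17.1 and matplotlib 3.10.9 were used.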

Additional observations from a re-analysis of the deposited data

How the results depend on the processing

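All alternatives were planned. The excess of wild-type intervals in the 9 windows, 6.26 on the log2 scale, ran from 4.38 to 6.30 over 11 alternatives. The knockout windows held 0 throughout, so the direction could not turn and the value follows the wild-type number alone, and none could pass 0.05. It ranged from 6.21 to 6.30 with a library left out. In a fit with a replicate block, which pairs libraries of the same number, it was 6.26, and the exact test over sign changes of the 2 pairs gave its lowest possible p, 0.5. With the knockout at 0 the numbers could not be checked for pairing. The median number of consensus regions per 100 kb, 4.80, fell to 1.74 when −log10 q had to reach 10, to 1.74 when fold enrichment had to reach 10, and to 2.61 when −log10 p had to reach 8 in all lists, settings that keep fewer intervals by construction. It was 8.55 with 10 kb flanks, 3.83 in gene bodies, 3.46 when the gene had to be the nearest coding gene, and 5.75 to 5.78 in either wild-type list alone. The number of genes with a summit near an end, 5, was 2 at either strict setting. Of the 76 pathway genes 61 had a region, 33 at a fold enrichment of at least 10 (31% of all coding genes had one there) and 36 in gene bodies (27.6% of all coding genes). The recovery of intervals by the other replicate averaged 82.8% and was 86.0% and 84.0% at the strict q and fold, 72.9% with a reciprocal overlap of at least 50%, 74.3% with summits within 100 bp, 86.5% with 10 kb flanks, 91.3% in gene bodies and 87.9% for nearest genes. The share of summits inside the gene, 41.0%, was 39.1% and 31.2% at the strict q and fold, 37.1% at the common p, 40% with the reciprocal overlap, 37.5% with near summits, 61.0% with 10 kb flanks, 29.4% with 100 kb flanks, and 37.0% to 37.2% in 1 wild-type list. Spearman's rho of 0.866 was 0.713 over the 23 regions at the strict q. The planned motif alternatives were not run. Weak intervals rest on as few as 4 fragments.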

Other observations

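Outside the 9 genes, some single regions of the pathway list were stronger than any at the 9, and are named here after their values were seen. Given as the lower of the fold enrichments in the wild-type replicates, the strongest region in the window of Etv1, which encodes an ETS factor related to ETV4 and ETV5, reached 33.7, and those of the ligand genes Fgf18 and Fgf21 reached 27.6 and 24.3. In the same measure the strongest region at the 9 genes, at Spry2, reached 18.1. Il17rd reached 23.3, and Spred1 and Spred2, which encode inhibitors of RAS signalling, reached 17.2 and 13.2. The number of regions and the strength of the best one did not go together at every gene: Etv1 held 7 consensus regions and Fgf18 held 4, against 21 at Etv5. Their correlation over the 76 pathway genes was not computed.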
